A study of Mus musculus with 10 samples.

Results

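The smooth muscle contractile apparatus is described here through 34 genes, chosen by name: actins and myosins, the proteins that decorate the thin filament, the kinase and phosphatase that set myosin activity, proteins of dense bodies and adhesions, and 2 transcription factors. Probe sets were taken where the platform annotation gives exactly 1 symbol, and that symbol is a member. All 34 members were measured, of 19935 genes named in the table, and all 34 passed the filter on dim probe sets. Expression was measured on 10 Affymetrix arrays, 1 per sample, from mammary epithelial cells of virgin females aged 8 to 12 weeks. SSKO basal cells (3 arrays) came from Pygo2 SSKO mice, a knockout of Pygo2, which encodes a co-factor of beta-catenin. Control luminal cells (3 arrays) and control basal cells (4 arrays) came from control mice, described as littermates caged with the mutants. Basal cells were sorted as negative for CD31, CD45 and TER119, high for CD29 and positive for CD24, a gate that holds the mammary stem cells, and luminal cells as low for CD29, positive for CD24 and negative for CD61. What SSKO stands for, how and in which cells the deletion was made, the strain, and how many animals lie behind an array are not stated in the labels. The sample titles call the replicates biological, but the p-values measure only the spread between these samples.

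Basal cells of the mammary gland are largely myoepithelial: they are epithelial cells that contract, and they squeeze milk from the alveoli in response to oxytocin. Like smooth muscle, they slide smooth muscle myosin along actin filaments when myosin light chain kinase phosphorylates the regulatory light chain, and they relax when myosin phosphatase removes that phosphate. Calponin, caldesmon and tropomyosin sit on the actin filament and tune this contact. Serum response factor (SRF), with myocardin or the related MRTF proteins, drives many of these genes through a DNA element called the CArG box.

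Values are log2(intensity + 16), and a difference or fold on this scale understates the change of dim genes. The level below which probe sets were treated as dim was 6.74, and a low value does not show that a gene was silent. A gene was called at a Benjamini-Hochberg adjusted p under 0.05 over 15815 genes in limma. Levels of different genes are not compared with each other, since probe sets differ in how brightly they bind.

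Pygo2 itself had log2 values of 6.99, 5.94 and 5.86 in SSKO basal arrays 1 to 3, against 8.30, 9.09, 8.11 and 8.91 in control basal arrays 1 to 4, all below the control range. Whether its probe set lies in the deleted part was not determined. Some arrays stood apart. Luminal array 3 held more signal of basal markers than the other luminal arrays, with a mean over 9 markers of 8.10, 7.46 and 10.12 in luminal arrays 1 to 3, against 12.14 to 12.42 in control basal arrays. Its keratin Krt5 was 11.68, against 13.20 to 13.55 in control basal arrays. SSKO basal arrays 1 and 3 and control basal array 1 were bright for endothelial markers, with means over 10 markers of 10.98, 10.10 and 10.02, against 8.22 in SSKO basal array 2 and 8.39 to 8.83 in the other control basal arrays. Fibroblast markers were also brighter in the basal gate, with means over 8 markers of 9.89 to 10.49 in SSKO basal, 7.23 to 7.87 in luminal and 10.14 to 11.50 in control basal arrays.

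**Figure D1:**
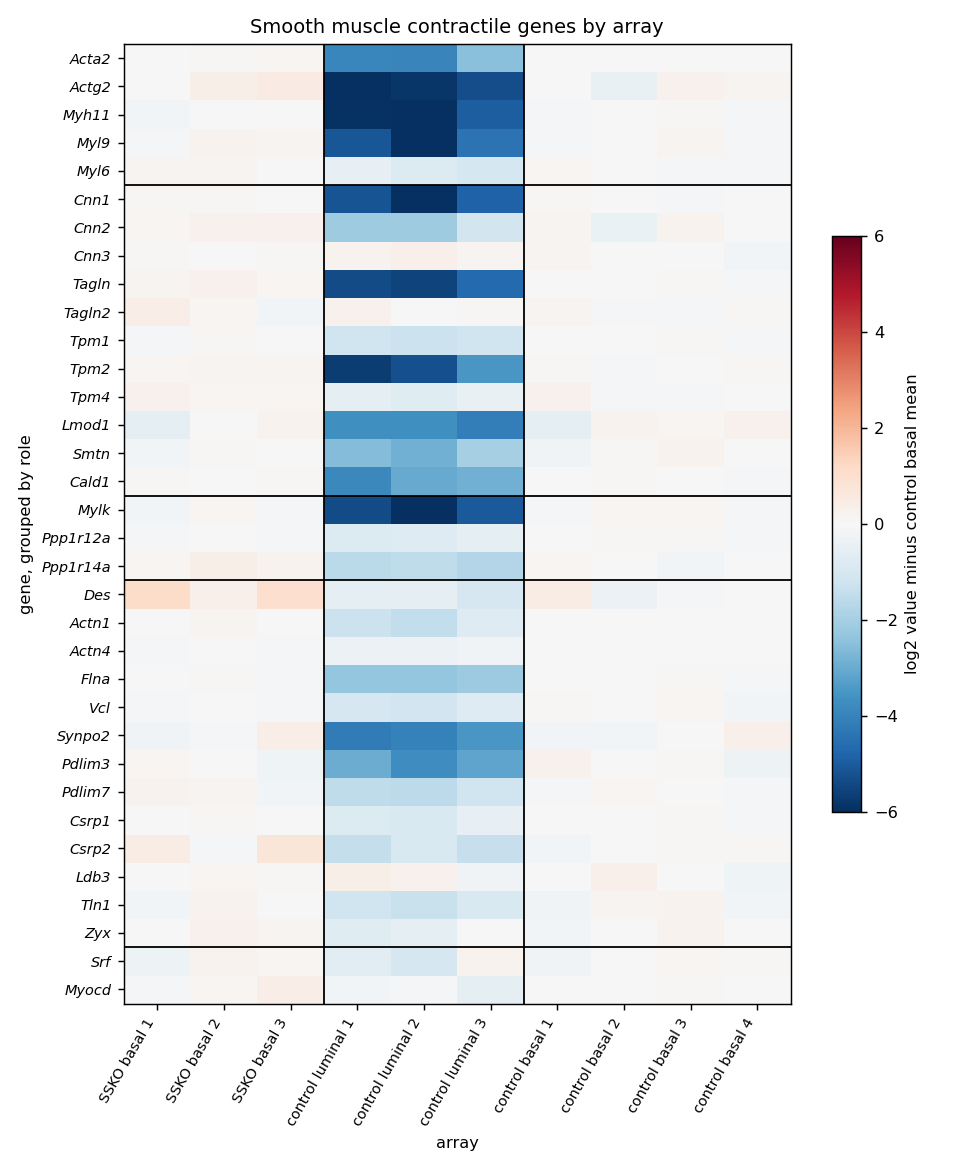
Log2 value of each of the 34 genes in each array minus its control basal mean, as colour, with genes grouped by role and arrays in columns. The 3 luminal columns are dark for 12 genes that lay more than 3 below the control basal mean, while in the SSKO columns the strongest colours are those of Des in arrays 1 and 3.

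The first comparison asked how mature luminal cells differ from basal cells in the contractile genes. In luminal cells 29 of the 34 members were lower than in control basal cells, where 19.7% of all genes tested were called lower. No member was called higher, against 24.6% of all genes, and 1 was called higher (Cnn3) when the variance was allowed a trend. The median log2 difference was -1.34 over the members, against 0.07 over all genes tested. For 12 members (35.3%) the log2 difference was under -3, as it was for 2.24% of all genes, and 7 members stood among the 100 largest falls of the 15815 genes. The luminal and control basal arrays did not overlap for 30 members, as for 46.3% of all genes. Since these are bulk samples of sorted cells, fewer cells of a type and less RNA per cell cannot be told apart. Vascular smooth muscle and pericytes also use most of these genes. Their 9 listed markers averaged 8.14 to 8.32 in luminal and 8.86 to 8.97 in control basal arrays, a mean that mixes falls and rises. Of the 8 tested, 5 were lower in luminal cells: Pdgfrb (-3.16), Mcam (-2.37), Rgs5 (-1.26), Cspg4 (-1.17) and Abcc9 (-0.99). Only 1, Notch3, was higher (2.50), while Kcnj8 (-0.24) and Anpep (0.48) were not called. Higd1b was under the filter level. The part of vascular smooth muscle and pericytes in the result was not tested.

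The actin and myosin genes were lower in luminal cells in 5 of 5 cases, with a median difference of -5.18. Myh11, the smooth muscle myosin heavy chain, had log2 values of 7.02, 6.35 and 8.00 in luminal arrays 1 to 3, against 12.88, 12.99, 13.03 and 12.86 in control basal arrays 1 to 4. The groups were far apart, with a difference of -5.81 (SE 0.29, limma adjusted p = 5.68e-08), or 56.2-fold lower. Actg2, the smooth muscle gamma actin, had values of 5.80, 6.18 and 6.69 in luminal arrays, against 12.05, 11.57, 12.28 and 12.16 in control basal arrays. All 3 luminal values lay under the level treated as dim, so the difference of -5.79 (SE 0.23, adjusted p = 1.29e-08) may understate the fall. Myl9, the regulatory light chain that the kinase phosphorylates, had values of 7.71, 6.88 and 8.42 in luminal arrays, against 12.76, 12.84, 13.03 and 12.76 in control basal arrays, a difference of -5.18 (SE 0.28, adjusted p = 8.86e-08).

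Acta2, the smooth muscle alpha actin that is the usual marker of myoepithelium, stayed well above the dim level in luminal arrays. Its values were 9.89, 9.81 and 11.30 in luminal arrays, against 13.81, 13.77, 13.81 and 13.79 in control basal arrays. The fall was -3.46 (SE 0.29, adjusted p = 2.65e-06), or 11.0-fold, and -3.94 without luminal array 3, the highest luminal value and the array brightest for basal markers. Actin genes are nearly identical in their coding sequence, so a probe set can read its paralogs, which was not tested here. The beta actin Actb, the cytoplasmic form, averaged 14.02 in luminal and 14.02 in control basal cells. Myl6, the essential light chain that smooth muscle and other cells share, was 12.32, 11.99 and 11.75 in luminal arrays, against 12.90, 12.80, 12.74 and 12.75 in control basal arrays. Its fall was smaller, at -0.78 (SE 0.14, adjusted p = 8.14e-04). It was the only member with more than 1 probe set, and its 6 probe sets gave differences of -0.78 to -0.85.

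**Figure D2:**
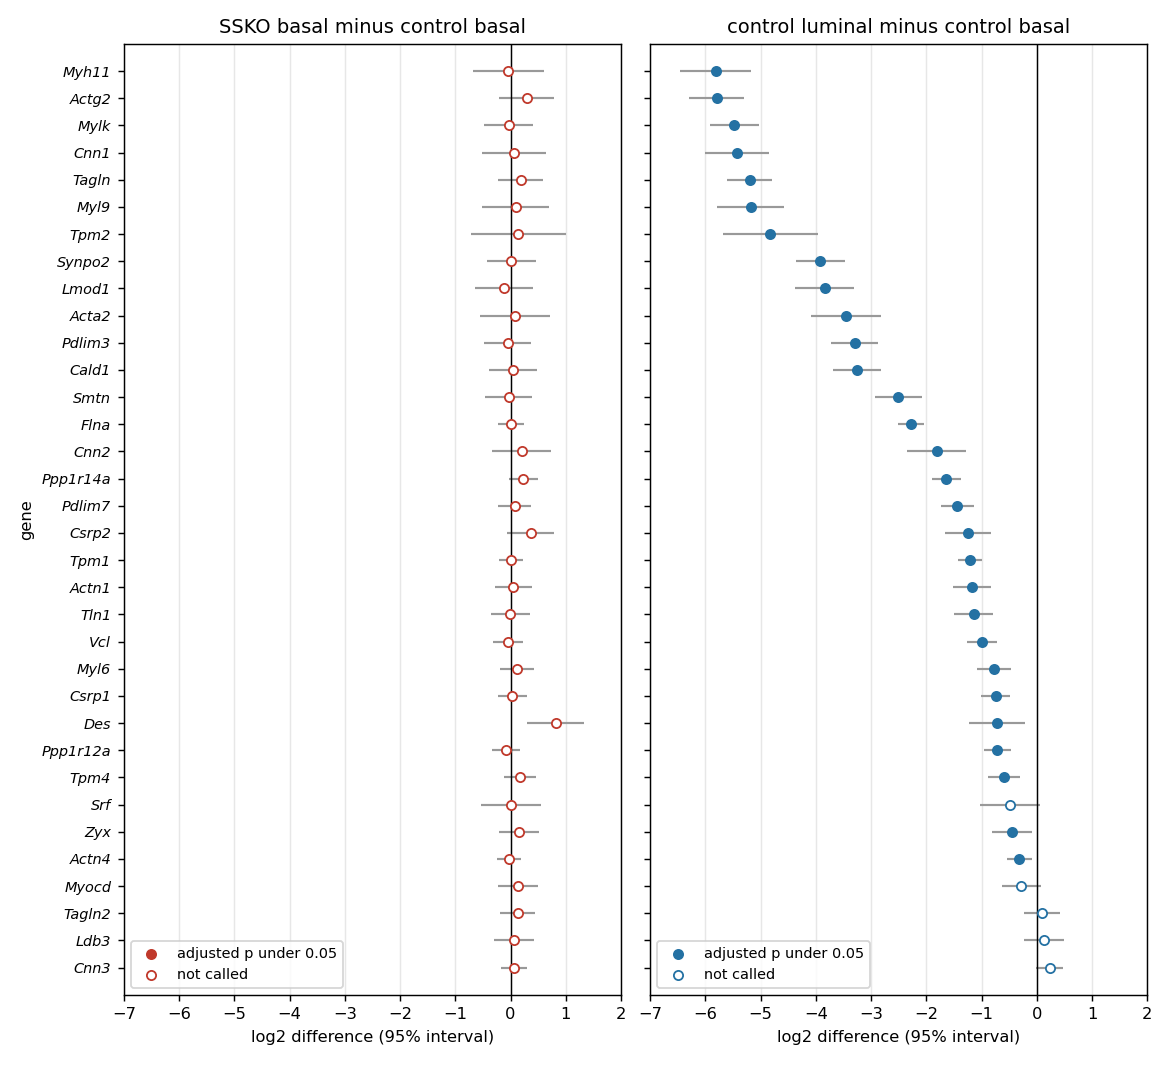
Log2 difference with its 95% interval from limma for each gene, SSKO basal minus control basal on the left and control luminal minus control basal on the right, filled where the adjusted p was under 0.05. The right panel runs from -5.81 for Myh11 to 0.24 for Cnn3, and in the left panel Des alone has an interval that leaves out 0.

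Of the 11 thin filament genes, 9 were lower in luminal cells. Cnn1, the smooth muscle calponin that restrains the myosin motor, had values of 7.97, 6.87 and 8.30 in luminal arrays, against 13.19, 13.18, 13.08 and 13.10 in control basal arrays (difference -5.43, SE 0.26, adjusted p = 4.69e-08). Tagln, or SM22, an actin-bundling relative of calponin, had values of 7.24, 7.04 and 7.93 in luminal arrays, against 12.62, 12.59, 12.68 and 12.52 in control basal arrays (-5.20, SE 0.18, adjusted p = 8.28e-09). Tpm2, the beta tropomyosin, had values of 6.21, 6.61 and 8.39 in luminal arrays, against 11.95, 11.82, 11.87 and 11.95 in control basal arrays (-4.83, SE 0.39, adjusted p = 2.10e-06). Its luminal SD of 1.16 was the widest of the members, and the high value belonged to luminal array 3. Lmod1, a leiomodin that starts new actin filaments in smooth muscle, had values of 5.97, 5.95 and 5.50 in luminal arrays, all in the dim range, against 9.07, 9.86, 9.77 and 9.89 in control basal arrays. Its difference was -3.84 (SE 0.24, adjusted p = 2.99e-07). Caldesmon, Cald1, differed by -3.25 (SE 0.20) and smoothelin, Smtn, by -2.51 (SE 0.20), with adjusted p = 2.49e-07 and 1.54e-06.

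Relatives of these proteins that many cell types use moved less or not detectably. Calponin 2, Cnn2, had values of 9.85, 9.85 and 10.88 in luminal arrays, against 12.18, 11.62, 12.20 and 12.04 in control basal arrays (-1.81, SE 0.24, adjusted p = 1.05e-04). Calponin 3, Cnn3, was 12.68, 12.74 and 12.64 in luminal arrays, against 12.63, 12.42, 12.45 and 12.31 in control basal arrays. The luminal arrays lay just above the control basal arrays, but the difference of 0.24 (95% interval -0.01 to 0.48) did not pass (adjusted p = 0.107). Transgelin 2, Tagln2, was 12.41, 12.17 and 12.23 in luminal arrays, against 12.34, 12.06, 12.08 and 12.24 in control basal arrays. Those groups overlapped, with a difference of 0.09 (95% interval -0.23 to 0.42, adjusted p = 0.662). The tropomyosins Tpm1 and Tpm4 fell by 1.21 (SE 0.10) and 0.59 (SE 0.13) on the log2 scale, with adjusted p = 2.55e-06 and 0.00338.

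Whether paralogs shifted unequally was tested on the log2 difference within each array for 6 pairs, by exact two-sided permutation over 35 splits of 3 luminal and 4 control basal arrays. For Tagln minus Tagln2 the within-array difference averaged -4.87 in luminal and 0.42 in control basal arrays, a shift of -5.29. The shifts, luminal minus control basal, were -5.66 for Cnn1 against Cnn3, -3.61 for Cnn1 against Cnn2 and -4.24 for Tpm2 against Tpm4. The non-muscle alpha-actinins, Actn1 against Actn4, had a smaller one of -0.86. All 5 pairs had p = 0.0286, the smallest this exact test can give, and adjusted p = 0.0343 over the 6 pairs. Cnn1 is in both calponin pairs, so the pairs are not independent. The test uses the same arrays and values as the differences of the single genes, so it is not separate support for them. The LIM proteins Csrp1 against Csrp2 had a shift of 0.50 that did not pass (p = 0.0857 by the same exact permutation test, adjusted p = 0.0857).

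**Figure D3:**
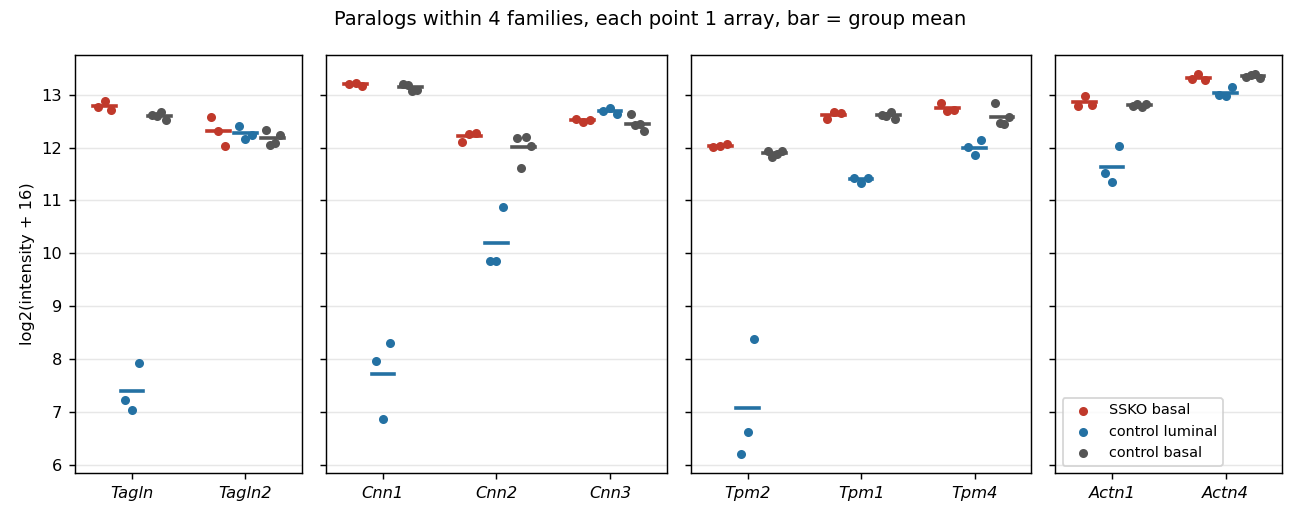
Log2 values of members of 4 families, 1 point per array and a bar at the group mean, with SSKO basal left, control luminal in the middle and control basal right within each gene. Tagln, Cnn1 and Tpm2 drop in luminal arrays to means of 7.40, 7.71 and 7.07, while Tagln2 and Cnn3 stay at 12.27 and 12.69.

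The genes of the kinase and phosphatase that switch the motor on and off differed in size of change on the log2 scale. Mylk, the myosin light chain kinase, had values of 6.37, 5.71 and 6.70 in luminal arrays, all in the dim range, against 11.60, 11.85, 11.86 and 11.62 in control basal arrays. Its difference was -5.47 (SE 0.20, adjusted p = 9.23e-09), or 44.4-fold. Ppp1r14a, or CPI-17, an inhibitor of myosin phosphatase, had values of 6.75, 6.85 and 6.60 in luminal arrays, against 8.50, 8.42, 8.22 and 8.36 in control basal arrays (-1.64, SE 0.12, adjusted p = 8.86e-07). Ppp1r12a, the subunit that targets the phosphatase to myosin, was 10.67, 10.68 and 10.93 in luminal arrays, against 11.45, 11.52, 11.57 and 11.36 in control basal arrays (-0.72, SE 0.11, adjusted p = 3.32e-04). The luminal mean of Ppp1r14a, 6.73, was just under the level treated as dim, and its control basal mean was 8.38. Its fall may thus be understated, and its size cannot be set against that of Mylk. Luminal and control basal arrays were apart in each of the 3 genes.

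Of the 13 genes of dense bodies, adhesions and the intermediate filament, 12 were lower in luminal cells. Synpo2, an actin-bundling protein of smooth and striated muscle, had values of 6.07, 6.17 and 6.74 in luminal arrays, against 10.09, 10.09, 10.28 and 10.54 in control basal arrays (-3.92, SE 0.20, adjusted p = 6.86e-08). Its luminal mean of 6.33 lay under the level treated as dim, so the fall may be understated. Pdlim3, a PDZ and LIM protein that binds alpha-actinin, had values of 9.23, 8.49 and 9.07 in luminal arrays, against 12.48, 12.21, 12.29 and 11.93 in control basal arrays (-3.30, SE 0.19, adjusted p = 1.70e-07). Filamin A, Flna, which cross-links actin, had values of 10.84, 10.85 and 11.01 in luminal arrays, against 13.23, 13.19, 13.24 and 13.07 in control basal arrays. Its difference of -2.28 (SE 0.11, adjusted p = 4.24e-08) came with a luminal SD of 0.09. Smaller falls were those of Pdlim7 (-1.44), Csrp2 (-1.24), Actn1 (-1.17), the talin Tln1 (-1.15), the vinculin Vcl (-0.99) and Csrp1 (-0.74), with adjusted p between 6.86e-06 and 4.15e-04. Ldb3, a Z-disc protein of striated muscle, averaged 7.43 in luminal and 7.30 in control basal cells, with overlapping arrays (0.13, adjusted p = 0.587).

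The other 3 of these calls were close to the threshold. Desmin, Des, the muscle intermediate filament, had values of 7.56, 7.56 and 7.11 in luminal arrays, against 8.58, 7.79, 8.03 and 8.14 in control basal arrays (-0.72, SE 0.23, adjusted p = 0.0244). The call ended without control basal array 1 (-0.57, adjusted p = 0.0569) or luminal array 3 (-0.57, 0.0986). The alpha-actinin Actn4 differed by -0.31 (adjusted p = 0.0260), and its call ended without control basal array 3, luminal array 1 or luminal array 2 (adjusted p = 0.0519 to 0.0961). Zyxin, Zyx, a focal adhesion protein, differed by -0.45 (adjusted p = 0.0479) with overlapping groups, and its call ended in 8 of the 10 fits that left out 1 array (adjusted p = 0.0602 to 0.207), holding without control basal array 1 or luminal array 3.

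Neither transcription factor was called. Srf, which encodes SRF, had values of 10.67, 10.26 and 11.49 in luminal arrays, against 11.08, 11.34, 11.41 and 11.34 in control basal arrays. Luminal array 3 lay above every control basal array and the other 2 luminal arrays below them, so the difference of -0.48 (SE 0.25, adjusted p = 0.143) grew to -0.82 (SE 0.18, adjusted p = 0.00471) without luminal array 3. Myocd, which encodes myocardin, was 7.34, 7.55 and 7.87 in SSKO basal, 7.27, 7.41 and 6.85 in luminal, and 7.42, 7.45, 7.54 and 7.41 in control basal arrays. The luminal arrays lay below the control basal arrays by small margins (-0.28, SE 0.16, adjusted p = 0.195).

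Promoters are shown because SRF acts through the CArG box and because members fell together. RefSeq promoter windows (GRCm38.p6, 250 bases before to 50 after the start) matched 29 of the 34 genes. Actg2, Myh11, Tagln, Csrp2 and Myocd had no match. The CArG box was searched as CC, then 6 bases that are each A or T, then GG, which reads as a CArG box on both strands. It was found in 6 of the 29 genes (20.7%) and in 1.81% of the 27025 genes with a window. Among the further genes of the same pathway described below, 5 of the 25 with a window held it, so it was not particular to the members. The matches do not overlap each other. Below, the bases around each match and before the start are given 5′ to 3′, with the CArG box in capitals.
Myl9: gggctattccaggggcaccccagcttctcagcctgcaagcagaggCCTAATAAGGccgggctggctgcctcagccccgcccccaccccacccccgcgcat
Cnn2: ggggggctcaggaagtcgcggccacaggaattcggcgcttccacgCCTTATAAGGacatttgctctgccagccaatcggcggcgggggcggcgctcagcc
Vcl: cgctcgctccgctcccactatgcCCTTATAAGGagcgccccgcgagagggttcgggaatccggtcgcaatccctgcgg
Myl6: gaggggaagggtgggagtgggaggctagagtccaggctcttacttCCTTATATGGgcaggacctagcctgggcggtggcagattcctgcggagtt
Srf: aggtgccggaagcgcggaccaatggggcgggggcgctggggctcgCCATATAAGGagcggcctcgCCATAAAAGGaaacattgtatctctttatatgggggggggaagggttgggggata
Ldb3: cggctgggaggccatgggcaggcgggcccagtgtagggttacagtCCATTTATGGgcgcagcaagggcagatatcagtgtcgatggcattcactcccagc

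The first base of the match lay 161 bases before the start in Myl9 (chr2:156775258-156775357, plus strand) and 56 bases before it in Cnn2 (chr10:79988499-79988598, plus strand). It lay at 227 bases in Vcl (chr14:20929148-20929225, plus strand) and at 50 bases in Myl6 (chr10:128493010-128493104, minus strand). Srf, whose product binds the element, held 2 matches, at 82 and 62 bases (chr17:46556170-46556289, minus strand). Ldb3 held 1 at 109 bases from one of its annotated starts and 35 from another (chr14:34588662-34588761, minus strand). The 6 genes ranged widely in the luminal comparison, at -5.18 for Myl9, -1.81 for Cnn2, -0.99 for Vcl, -0.78 for Myl6, -0.48 for Srf and 0.13 for Ldb3. Members that fell by more than 3 without a match in the window included Cnn1, Mylk and Acta2, which says only that the exact pattern is not there. Elements that differ from the pattern by a base were not searched, so these promoters may still hold a CArG-like element.

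Of a further 32 genes of the same pathway, 28 were measured and 27 tested, and in luminal cells 11 were lower and 4 higher than in control basal cells, with the remaining 12 not called, where 19.7% of all genes tested were called lower and 24.6% higher. The largest falls were those of Kcnmb1, the smooth muscle beta subunit of the large-conductance potassium channel (-5.86, SE 0.17), Prkg1, the cGMP-dependent kinase that relaxes smooth muscle (-3.99, SE 0.12), and Pgm5, an adhesion protein of muscle (-3.78, SE 0.41). Their adjusted p were 5.39e-09, 5.39e-09 and 2.23e-05. The largest rises were those of the non-muscle myosin heavy chain Myh14 (2.45, SE 0.16), the non-muscle regulatory light chain Myl12b (1.16, SE 0.11) and the supervillin gene Svil (0.69, SE 0.19). Their adjusted p were 4.40e-07, 8.03e-06 and 0.0110. Of the SRF co-factors, Mrtfa fell by 0.59 (adjusted p = 0.0445) and Mrtfb rose by 0.59 (adjusted p = 0.0179), and neither call held throughout: that of Mrtfa ended when any 1 of 7 arrays was left out. Those of Mrtfb and Svil ended without luminal array 3. Of the other non-muscle myosin heavy chains, Myh10 was lower in luminal cells (-2.18, SE 0.16, limma adjusted p = 1.09e-06). Myh9 had a difference of -0.05 (adjusted p = 0.846).

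The second comparison asked whether loss of Pygo2 altered the contractile genes of basal cells. None of the 34 members was called by limma in SSKO basal cells, against 0.0379% of all genes, and 1 member, Des, had an unadjusted p under 0.05, as did 3.03% of all genes. The median log2 difference was 0.06 over the members and 0.01 over all genes tested. Luminal markers were brighter in the SSKO basal arrays, with means over 9 markers of 10.53, 10.39 and 10.74 in SSKO basal arrays, against 9.57, 9.88, 9.88 and 10.17 in control basal arrays. Of these, Cited1, a transcriptional co-regulator, was called (1.56, limma adjusted p = 0.0103), and 5 of the 9 had an unadjusted p under 0.05. The part of these markers in the members' values was not tested. Among the 27 tested genes of the further list none was called, and 2 had an unadjusted p under 0.05. They were the actin gene Acta1 (0.58, limma unadjusted p = 0.0051) and Prkg1 (-0.30, limma unadjusted p = 0.0255). The members that mark myoepithelium were close between the groups. Acta2 had values of 13.84, 13.88 and 13.89 in SSKO basal arrays, against 13.81, 13.77, 13.81 and 13.79 in control basal arrays (0.07, 95% interval -0.56 to 0.71). Myh11 had values of 12.78, 12.98 and 12.93 in SSKO basal arrays, against 12.88, 12.99, 13.03 and 12.86 in control basal arrays (-0.04, 95% interval -0.68 to 0.60). Myh11 overlapped between the groups, while the SSKO arrays lay slightly above the control arrays for Acta2.

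The intervals are wide for such tight values because the fit shares 1 spread over all groups, and the luminal arrays varied more. The median SD over the members was 0.10 in SSKO basal, 0.29 in luminal and 0.12 in control basal arrays. When the 7 basal arrays were fitted alone, the interval of 28 of the 34 members lay within 0.5 on either side of 0, and no member was called. In that fit the interval was -0.16 to 0.31 for Acta2, -0.31 to 0.22 for Myh11, -0.33 to 0.26 for Mylk and -0.19 to 0.30 for Cnn1. The 6 members with wider reach were Actg2, Cnn2, Csrp2, Des, Lmod1 and Ppp1r14a.

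In 4 members (11.8%) the SSKO basal arrays did not overlap the control basal arrays, compared with 4.46% of all genes, and in each the SSKO arrays were higher. They were Acta2, Tagln, Tpm2 and Ppp1r14a, each with an adjusted p of 1.00 in limma. Tagln had values of 12.77, 12.88 and 12.71 in SSKO basal arrays, against 12.62, 12.59, 12.68 and 12.52 in control basal arrays (0.18, SE 0.18). Ppp1r14a had values of 8.51, 8.72 and 8.58 in SSKO basal arrays, against 8.50, 8.42, 8.22 and 8.36 in control basal arrays (0.23, SE 0.12). For Tpm2 the SSKO values were 12.00, 12.04 and 12.07 (0.14, SE 0.39), all above the highest control value of 11.95. These margins were small, and after quantile normalization the Acta2 difference was -0.01. The differences of the others stayed positive in every alternative, at 0.13 to 0.28 for Tagln, 0.09 to 0.16 for Tpm2 and 0.17 to 0.39 for Ppp1r14a, without a call.

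Des had the smallest p of the members in the SSKO comparison. Its values were 9.26, 8.46 and 9.13 in SSKO basal arrays, against 8.58, 7.79, 8.03 and 8.14 in control basal arrays, a difference of 0.82 (SE 0.23, unadjusted p = 0.00476, adjusted p = 1.00). SSKO basal array 2 lay below control basal array 1, and the 3 brightest arrays were the 3 that were bright for endothelial markers. Csrp2, a LIM protein of vascular smooth muscle and other cells, had values of 10.07, 9.55 and 10.35 in SSKO basal arrays, against 9.48, 9.59, 9.71 and 9.72 in control basal arrays (0.36, SE 0.19). Its 2 high values were those of SSKO basal arrays 1 and 3, while control basal array 1 was the lowest of its group.

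The 9 pericyte and vascular smooth muscle markers averaged 9.18, 8.90 and 9.17 in SSKO basal arrays 1 to 3, against 8.88, 8.87, 8.97 and 8.86 in control basal arrays 1 to 4. None of the 8 tested was called. The markers did not move as 1 group over the basal arrays. Rgs5 was 10.40, 9.08 and 9.86 in SSKO basal arrays, against 10.22, 8.87, 9.40 and 9.01 in control basal arrays, and Abcc9 was 8.91, 7.79 and 8.63 against 8.39, 7.64, 7.92 and 7.96. Kcnj8 was 8.38, 7.48 and 8.09 against 7.81, 7.57, 7.44 and 7.32. These markers, chosen after their values were seen, were brightest in the 3 arrays brightest for Des. Notch3 was 9.08, 8.74 and 9.26 in SSKO basal arrays, against 8.30, 8.28, 8.71 and 8.63 in control basal arrays. All its SSKO values lay above the control range (0.55, limma unadjusted p = 0.00922), without a call. Mcam was 11.02, 11.30 and 11.79 in SSKO basal arrays, against 10.45, 11.78, 10.88 and 12.05 in control basal arrays, lowest in control basal array 1. Pdgfrb peaked in control basal array 3 (10.70), and within the SSKO arrays Cspg4 and Anpep were highest in array 2. Higd1b was in the dim range in every array. Without SSKO basal arrays 1 and 3 and control basal array 1, the Des difference was 0.48 and that of Csrp2 was -0.12, in a fit with a single SSKO array whose spread is taken from the other groups. Those 3 arrays hold the 3 highest Des values and both high Csrp2 values, so smaller differences without them follow from the choice of arrays. That fit called 0 of all 15815 genes in SSKO cells, members included. It called 27 members lower in luminal cells, and 2887 of all genes. The part of these markers in the Des and Csrp2 values was not tested.

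**Figure D4:**
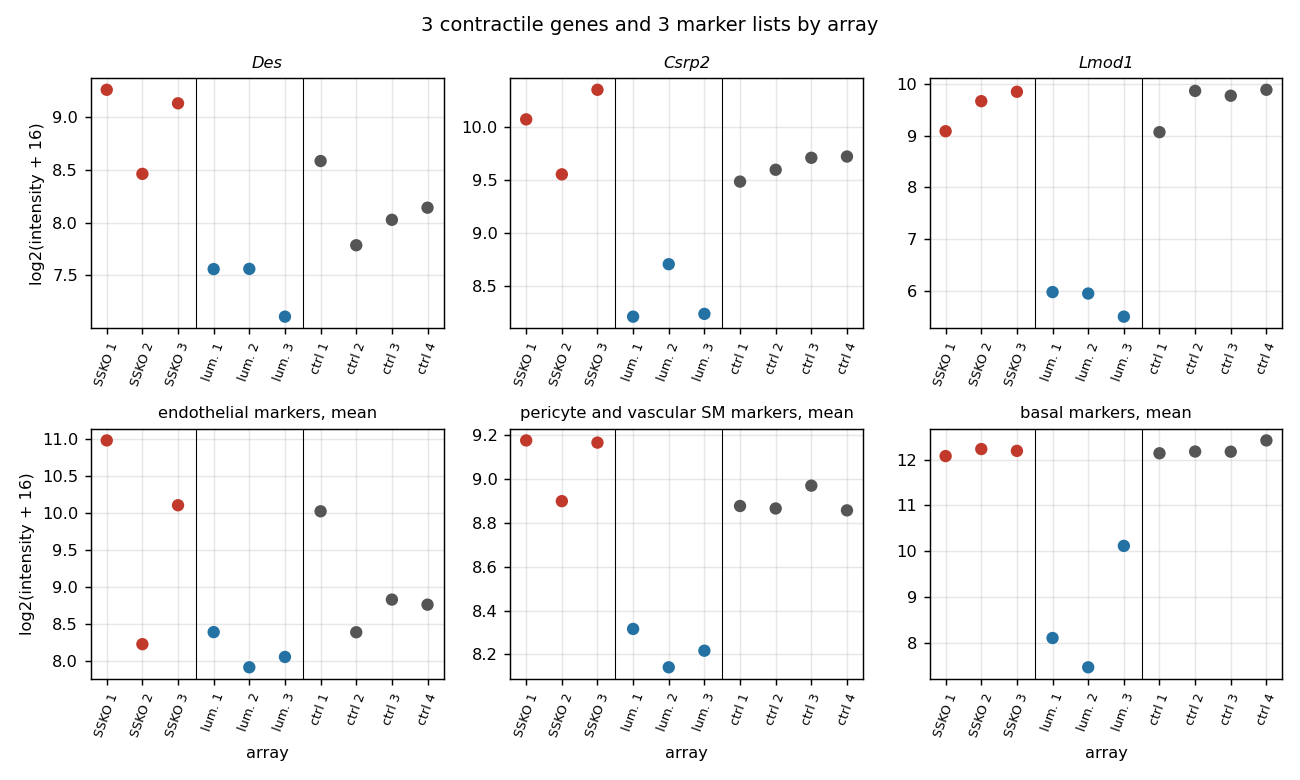
Log2 values by array of Des, Csrp2 and Lmod1 (top) and the mean log2 value of the endothelial, pericyte and vascular smooth muscle, and basal marker lists (bottom), with SSKO basal arrays (SSKO) left, luminal arrays (lum.) in the middle and control basal arrays (ctrl) right. Des is highest in SSKO arrays 1 and 3, at 9.26 and 9.13, where the endothelial mean is 10.98 and 10.10, and luminal array 3 stands out in the basal marker mean at 10.12.

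The third comparison set SSKO basal cells against control luminal cells, and shares its luminal arrays with the first comparison. In SSKO basal cells 28 of the 34 members were higher than in luminal cells, where 19% of all genes were called higher, and none was called lower, against 23.3% of all genes. Actg2 had the largest difference, 6.08 (SE 0.24, adjusted p = 2.59e-08), followed by Myh11 at 5.77 (SE 0.31), Cnn1 at 5.48 (SE 0.28) and Mylk at 5.44 (SE 0.22). The 6 members not called were Cnn3, Tagln2, Actn4, Ldb3, Srf and Myocd. Des was higher by 1.54 (SE 0.25, adjusted p = 4.42e-04) in SSKO basal cells than in luminal cells, with no overlap. The Zyx call (0.60, adjusted p = 0.0183) ended without SSKO basal array 2, luminal array 1 or luminal array 2 (adjusted p = 0.0657 to 0.0814). Without luminal array 3, Actn4 and Srf passed (adjusted p = 0.0460 and 0.00663), and Myocd passed without SSKO basal array 1 or luminal array 2 (0.0428 and 0.0494).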

How the data were processed

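Sorted cells were hybridised to 10 arrays. The table that the authors deposited gives linear intensity for 28815 probe sets, made with Expression Console 1.1 and PLIER 2.0 from Affymetrix, per the submitters' processing notes. No source used here states a normalization between arrays. Array medians lay between 205 and 228. The number of arrays limits the precision. The platform annotation named the probe sets (21780 with 1 symbol, 1605 with several, 5430 with none; the last 2 kinds were not used).

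Values were taken as log2(intensity + 16). The 25% of probe sets of lowest mean were dropped, and the brightest probe set stood for each gene, which left 15815 genes. A model with 3 group means was fitted with limma 3.58.1 in R 4.3.3 (two-sided, 7 residual degrees of freedom), after a test on simulated data. Paralog pairs were tested with scipy 1.17.1.

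The members and lists were chosen with earlier results of these data known. All members were named, and of the related genes the 3 largest called rises and falls. The SRF co-factors, Actb, Myh9 and Myh10, and the marker genes beside them, were chosen after their values were seen. Alternatives covered the pseudocount, filter, normalization, probe sets, samples fitted, variance model, replicate block and leaving out each array.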

Additional observations from a re-analysis of the deposited data

Results flagged for a closer look

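Lmod1 in control basal array 1 was far from the other arrays of its group, at 9.07 against 9.77 to 9.89. The gap took up 0.860 of the group's range, above Dixon's 95% critical value for 4 samples. It was the only one of 34 genes so marked, where chance marks about 1 in 20 groups. SSKO basal array 1 had a similar value of 9.08, against 9.67 and 9.85 in the other SSKO basal arrays. The Lmod1 difference between SSKO and control basal cells was -0.11, and it was -0.31 without control basal array 1 and 0.11 without SSKO basal array 1.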

How the results depend on the processing

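The alternatives left the count of members called lower in luminal than in control basal cells at 27 to 30, and that of members higher in SSKO basal than in luminal cells at 27 to 30. No member was called in SSKO against control basal cells in any of them. The count of members higher in luminal cells was 1 (Cnn3, adjusted p = 0.0374) with a variance trend, against 0 otherwise. No called difference changed sign. The related genes called numbered 11 to 16, against 15. The labels do not say what replicate numbers share, and whether they pair the samples is not settled: deviations of same-numbered SSKO and control basal arrays correlated at 0.63, 0.46 and 0.05, but SSKO array 3 correlated best with control array 4 (0.43), and same-numbered luminal and control basal arrays at -0.08, -0.08 and -0.06. The samples were treated as unpaired. With the replicate block 28 members were lower in luminal cells, Actn4 being lost (adjusted p = 0.0550). Only control basal cells have a replicate 4, so with the block that array adds nothing to the differences. The Tagln difference between SSKO and control basal cells was 0.154 with the block and 0.154 without control basal array 4. That block follows the replicate numbers, so a pairing of SSKO array 3 with control array 4 was not tested.

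Without 1 array, the paralog test cannot reach 0.05, and its shifts lay between -5.58 and -5.14 for Tagln against Tagln2, -3.91 and -3.37 for Cnn1 against Cnn2, -5.98 and -5.21 for Cnn1 against Cnn3, -1.01 and -0.74 for Actn1 against Actn4, 0.31 and 0.75 for Csrp1 against Csrp2, and -4.83 and -3.81 for Tpm2 against Tpm4. Dim signals limit the size of the largest falls: the Actg2 difference was -6.12 with a pseudocount of 1 and -5.08 with the largest pseudocount tried.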

Other observations

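Lmod1 was not alone in being low in SSKO basal array 1 and control basal array 1. The oxytocin receptor gene Oxtr, chosen after its values were seen, was 10.88 in SSKO basal array 1, against 11.75 and 11.58 in SSKO arrays 2 and 3. It was 10.88 in control basal array 1, against 11.87, 11.86 and 11.68 in control arrays 2 to 4. The muscle filamin Flnc, also chosen after its values were seen, was 11.35, 11.90 and 12.10 in SSKO basal arrays 1 to 3 and 11.38, 12.24, 11.58 and 12.36 in control basal arrays 1 to 4. Acta2 by contrast spanned 13.77 to 13.89 over the 7 basal arrays.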
